A study of Rickenella mellea with 14 samples.

Results

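Mature caps of the mushroom Rickenella mellea were compared with whole young fruiting bodies, using 3 cap libraries and 3 young fruiting body libraries, 6 of the 14 libraries in the series. The libraries were taken by their labelled stage and tissue, and polyadenylated RNA was sequenced from each. Young fruiting bodies stood 5 to 15 mm tall with a cap 1 to 2 mm wide, while the mature bodies, 20 to 32 mm tall, had a fully opened cap that was sampled without the stipe. All 6 libraries were made from fruiting bodies gathered in the field in 2016, carry the strain name SZMC22713 and ran on the same flow cell. The other groups were vegetative mycelium grown on agar (n = 3), field-collected primordia (n = 3) and the stipes of mature bodies (n = 2). They were used to place the genes that changed, and they entered the shared fit from which genes were called. The primordia were labelled as 1 mm or as 2 to 3 mm tall and were taken as 1 group. Age and the number of individuals per library are not given in the labels, and the p-values below rest on the variation among these few samples, which may be technical.

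The cap of such a mushroom carries the spore-bearing surface, on which specialised cells called basidia go through meiosis and shed spores, while the stipe lifts it. In agaric mushrooms the organs are laid down early, and the later steps are largely expansion of cells already in place together with the ripening of the spore-bearing layer. Whether the same holds for Rickenella mellea was not tested here. A young fruiting body holds both cap and stipe tissue, so age and body part are confounded and cannot be told apart here. In such bulk tissue, fewer cells of a type and less RNA per cell cannot be told apart either. The files do not pair the gene models of the set Ricmel1 with names, positions or products. No known role is therefore given to any of them, the identity of the tissue could not be checked against marker genes, and identifiers are printed for 4 models only.

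Young fruiting body libraries held 32.9 to 44.6 and cap libraries 32.8 to 54.6 times 1e6 reads. Between 99.3% and 99.4% of the reads of these 6 libraries were unique to 1 gene model. Spearman correlations across genes averaged 0.946 over the 6 pairs of libraries within the groups and 0.921 over the 9 pairs between them. Common biological coefficients of variation were close, at 54.0% among young fruiting bodies and 52.6% among caps. The other groups in the shared fit differed more, at 72.9% for primordia, 48.9% for mycelium and 32.8% for stipes. Young fruiting body replicate 2 stood nearest to the primordia, with correlations of 0.852 to 0.891, where replicates 1 and 3 gave 0.817 to 0.853. It also stood farthest from the caps, at 0.897 to 0.919, against 0.914 to 0.939 for the other young fruiting bodies. No pair of replicates agreed within counting noise, the lowest chi-square per degree of freedom being 210.

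In median, the genes called as risen in the cap changed by a larger factor than those called as fallen, and they started from a lower level. A gene with fewer reads needs a larger change to be called, and what this adds to the difference was not tested. Of 15559 gene models tested, 485 (3.12%) differed, of which 209 rose (1.34%) and 276 fell (1.77%), where a call needed an edgeR adjusted p under 0.05 and at least a 2-fold change. Of the 209 risen genes, 147 (70.3%) rose at least 4-fold, and of the 276 fallen genes 88 (31.9%) fell at least 4-fold. The share of fallen genes depended on the libraries, at 55.3% without young fruiting body replicate 1, 52.6% without cap replicate 1 and 63.5% without cap replicate 2, where the shares of risen genes were 86.9%, 82.3% and 88.7%. By limma-trend on log2(RPKM + 1) the shares were close, at 36.0% of risen and 32.9% of fallen genes. Over all 15559 gene models tested, called or not, 643 rose and 415 fell by a fitted 4-fold or more. The median log2 change was 2.58 among risen genes, -1.67 among fallen genes and -0.017 over all genes tested. Between 8-fold and 16-fold there were 60 risen and 18 fallen genes, and at 16-fold or more 15 and 13. Of the genes called, 484 had no overlap between the 3 caps and the 3 young fruiting bodies, as had 29.4% of all genes tested.

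**Figure D1:**
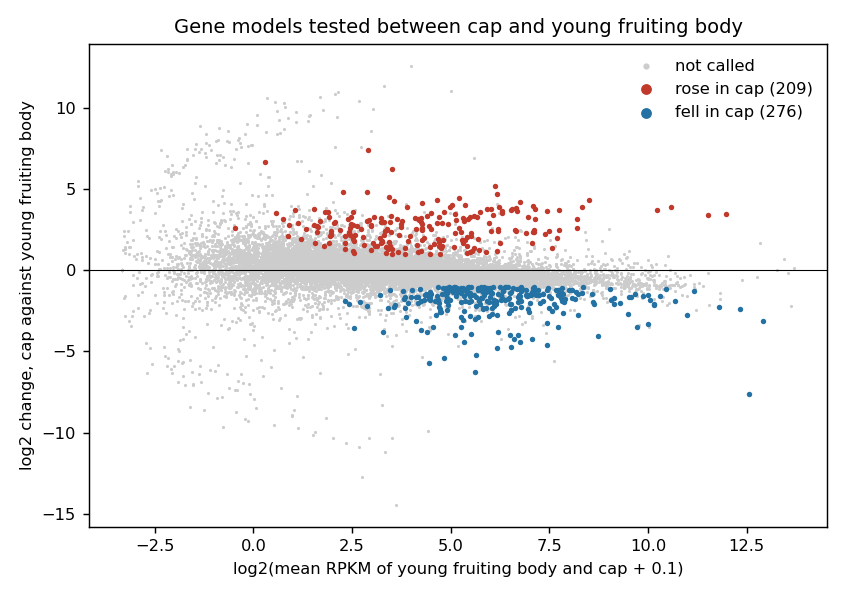
Log2 change from young fruiting body to cap (vertical axis) against the log2 of the mean RPKM of the 2 groups plus 0.1 (horizontal axis), 1 point per gene model tested. The 209 risen genes (red) spread over a wide range of levels, though none stood under 1 RPKM in caps. The 276 fallen genes (blue) are lacking at low levels, and grey points are genes not called.

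Risen genes started low. Measured per length as RPKM, reads per kilobase and per 1e6 scaled reads, the median risen gene went from 5.16 in young fruiting bodies to 30.8 in caps, while the median over all genes tested was 11.4 and 11.7. In young fruiting bodies 27 risen genes stood under 1 RPKM and 5 reached 100 RPKM, and in caps the numbers were 0 and 45. No risen gene was without reads in all 3 young fruiting bodies. Fallen genes started high and, over the full lists, came down in median to about the level that the risen genes reached. Their median went from 97.1 RPKM in young fruiting bodies to 29.0 RPKM in caps, and the number at 100 RPKM or more went from 135 to 48. Only 2 fallen genes were under 1 RPKM in caps, and none was without reads there. The match of levels in caps did not hold for the genes called in all 6 fits that left out 1 library. There the medians in caps were 61.8 RPKM for 75 risen genes and 17.4 RPKM for 39 fallen genes. All these levels come from the libraries that chose the genes.

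When the genes tested were put in 4 equal classes by mean RPKM over all 14 libraries, the highest class held 206 fallen and 36 risen genes. The lowest class held 0 fallen and 35 risen genes, and the class above it 6 and 76. Over all genes of a class, called or not, the median log2 change moved in the same order, from 0.49 in the lowest class through 0.21 and -0.09 to -0.43 in the highest. The difference between risen and fallen genes in level therefore ran along with a lean that genes outside the called lists shared. Scaling by library size alone gave 301 risen and 119 fallen genes, with the median log2 change of all genes shifted by 0.33. The shares at 4-fold or more were then 65.4% of risen and 42.9% of fallen genes.

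**Figure D2:**
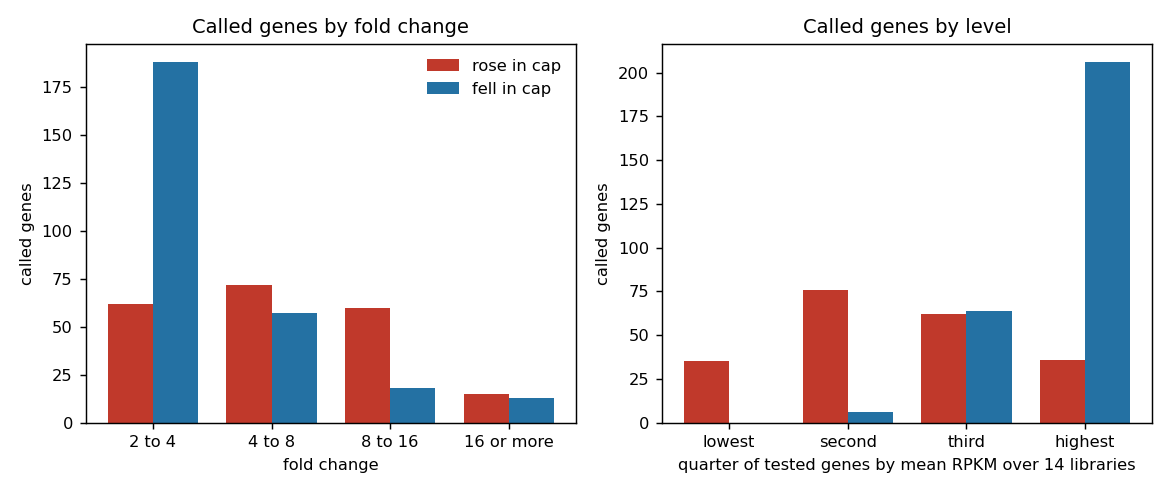
Numbers of risen (red) and fallen (blue) genes by size of the fold change (left) and by class of mean RPKM over the 14 libraries (right; 4 equal classes of the genes tested). Changes of 2-fold to 4-fold hold 188 fallen and 62 risen genes, and the highest level class holds 206 fallen and 36 risen genes.

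The risen genes took up 0.422% to 0.834% of the reads on tested genes in young fruiting bodies and 4.24% to 7.58% in caps. Much of this came from few genes, as 1 gene model of 2122 bases held 30.1% of the summed level of the risen genes in caps and the 10 most abundant held 67.8%. That most abundant risen gene measured 1140, 1076 and 1942 CPM (counts per 1e6 reads, after scaling) in young fruiting bodies and 18220, 19134 and 9780 CPM in caps. It rose by 3.50 ± 0.47 on the log2 scale (SE; edgeR adjusted p = 0.00255), with stipes at 1464 and 988 CPM, and stood at rank 6 among all genes by RPKM in caps. It was chosen after its values were seen. Without it, the summed level of the other 208 risen genes was 7.83-fold higher in caps. The risen genes were chosen on these same libraries, so a higher sum in caps was fixed by the choice. The sums and shares are a description only.

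The fallen genes together took up 8.20% to 10.96% of the reads on tested genes in young fruiting bodies and 2.78% to 3.35% in caps. That direction was likewise fixed by how the fallen genes were chosen. Their summed level was less concentrated, with 37.7% in the 10 most abundant. The most abundant of them, a short model of 543 bases also chosen after its values were seen, measured 4152, 15848 and 2527 CPM in young fruiting bodies and 861, 1070 and 702 CPM in caps. It fell by 3.10 ± 0.74 on the log2 scale (SE; edgeR adjusted p = 0.0409). Young fruiting body replicate 2 stood far above the other replicates for this gene, and the groups did not overlap. In both stipes it was high, at 9640 and 10851 CPM.

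Of the risen genes, gene model 902902 changed by the largest factor among those that the rule for named genes allowed. It is a model of 1556 bases with a level of 0.70, 0.68 and 0 CPM in young fruiting body replicates 1 to 3, from 30, 20 and 0 reads. In the caps it measured 45.3, 43.5 and 15.996 CPM, from 3118, 1782 and 728 reads. All caps stood far above all young fruiting bodies, with replicate 3 the lowest cap. Its log2 change was 6.25 ± 1.33 (SE; edgeR adjusted p = 0.0258). The level in stipes was 2.53 and 2.98 CPM, in mycelium 5.52 to 8.81 CPM, and in primordia 0, 0 and 0.94 CPM. It lost its call in 4 of the 6 fits that left out 1 library, all without young fruiting body replicate 1 or 2 or cap replicate 1 or 2, with edgeR adjusted p of 0.0807 to 0.0930, and in a fit of the 11 field-collected libraries, at 0.0579.

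Gene model 841741, of 597 bases, came next and varied far less among young fruiting bodies. It measured 2.07, 2.68 and 1.83 CPM in young fruiting bodies and 75.3, 133 and 33.1 CPM in caps. The groups were well apart although the caps differed among themselves. Its log2 change was 5.20 ± 0.56 (SE; edgeR adjusted p = 0.000907). Lower levels were measured in every other group, with 5.00 and 9.43 CPM in stipes, 1.07 to 1.37 CPM in primordia and 0.31 to 0.82 CPM in mycelium. By RPKM it moved from rank 10905 to rank 857 among the genes tested.

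Of the fallen genes, gene model 725928 fell the most and was among the most abundant transcripts of the young fruiting body, at rank 5 by RPKM. This model of 438 bases measured 4638, 8719 and 2418 CPM in young fruiting bodies and 24.8, 15.1 and 39.7 CPM in caps. Every young fruiting body library was above every cap library by a wide margin, with reads of 105465 to 256919 against 617 to 1805. Its log2 change was -7.63 ± 0.88 (SE; edgeR adjusted p = 0.00127), and its rank in caps was 2020. All other groups also lay above the caps. Stipes held 5407 and 11276 CPM, primordia 503 to 3255 CPM and mycelium 894 to 1560 CPM.

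Gene model 788485, of 659 bases, fell by 6.29 ± 1.35 on the log2 scale (SE; edgeR adjusted p = 0.0260). It measured 87.0, 101 and 3.87 CPM in young fruiting bodies and 0.47, 0.88 and 1.12 CPM in caps. Young fruiting body replicate 3 was close to the caps, which the other replicates were not. In 5 of the 6 fits that left out 1 library the call was lost, with edgeR adjusted p of 0.0648 to 0.127, and limma-voom gave an adjusted p of 0.182. Stipes held 45.1 and 30.9 CPM and primordia 2.22 to 20.9 CPM. Mycelium held more than any fruiting stage, with 226 to 3246 CPM.

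**Figure D3:**
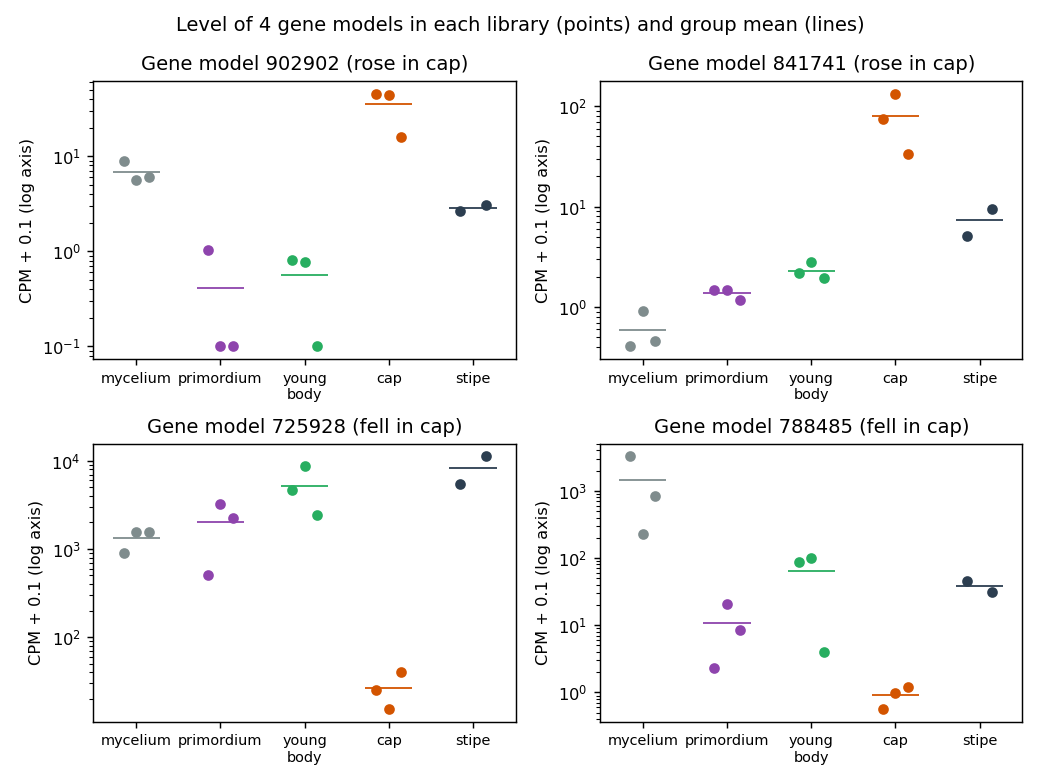
Level of 4 gene models in each of the 14 libraries (points, CPM plus 0.1 on a log axis) with the group mean (lines). For models 902902 and 841741 the caps lie above all other groups, and for models 725928 and 788485 they lie below all other groups.

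The replicates were not alike in how far they had moved. Among the 3 caps, replicate 3 had the lowest value for 167 of the 209 risen genes and the highest value for 146 of the 276 fallen genes. Its summed level of risen genes was 35932 CPM, against 59664 and 60745 CPM in the other caps. Among young fruiting bodies, replicate 3 had the highest value for 122 risen genes and the lowest for 156 fallen genes, while replicate 2 had the lowest value for 138 risen genes and the highest for 137 fallen genes. Young fruiting body replicate 3 and cap replicate 3 thus lay nearest to each other over the called genes, which were chosen on these same values.

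The number of calls depended on which libraries were present. It was 149 without cap replicate 2, 189 without cap replicate 1, 207 without young fruiting body replicate 1 and 225 without replicate 2, and 401 without cap replicate 3 and 424 without young fruiting body replicate 3. The libraries nearest to the other group were those whose loss cost the fewest calls. In all 6 of these fits, 75 genes were called as risen and 39 as fallen. The 75 had a median log2 change of 3.19 and moved from a median of 7.96 RPKM in young fruiting bodies to 61.8 RPKM in caps, with 67 of them at 4-fold or more. The 39 had a median log2 change of -2.44 and moved from 112 to 17.4 RPKM, with 27 at 4-fold or more. By edgeR, DESeq2 and limma-voom alike, 204 genes were called as risen and 246 as fallen.

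**Figure D4:**
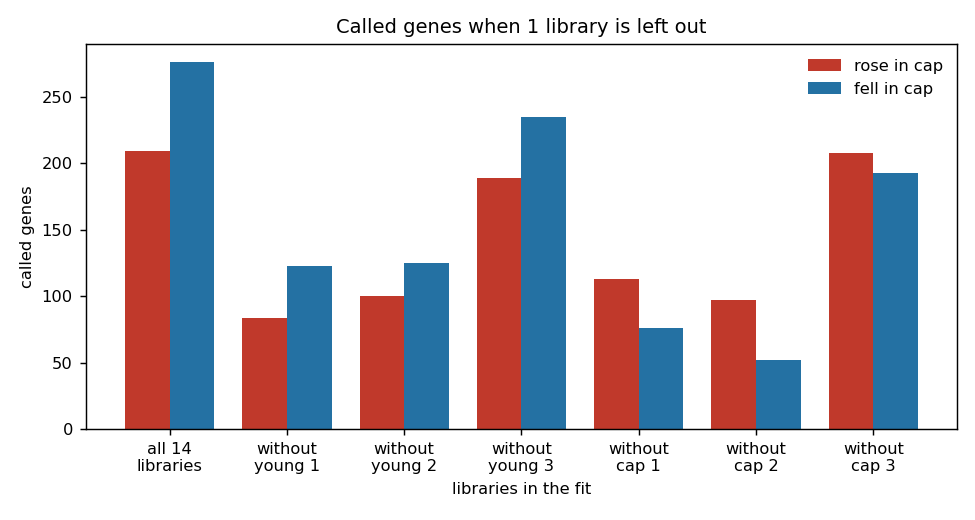
Numbers of risen (red) and fallen (blue) genes with all 14 libraries and with 1 cap or young fruiting body library left out. The total goes from 485 to 149 without cap replicate 2, and it is 401 without cap replicate 3 and 424 without young fruiting body replicate 3.

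Large changes were more often without a call than with one. At a fitted change of 16-fold or more, 28 genes were called and 228 were not. Of the 133 such genes that were higher in caps and not called, 102 had at least 75% of their summed cap level in 1 library, which was replicate 1 for 43, replicate 2 for 17 and replicate 3 for 42. Of the 95 that were higher in young fruiting bodies, 55 had 1 library with that share, which was replicate 1 for 33, replicate 2 for 13 and replicate 3 for 9. Among all called genes, not only those at 16-fold or more, this was seen for 1 of 209 risen and 5 of 276 fallen genes. The latter were all in young fruiting body replicate 2. The 2 sets thus differ in fold change, and a gene held up by 1 library is less likely to pass the test. At 4-fold or more, 823 genes were without a call, and 397 of them had no overlap between the groups, beside 29.4% of all genes tested. Both counts take in such genes at 16-fold or more.

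In the other stages and organs the risen genes were low. Their median level was 5.54 RPKM in stipes, 3.79 RPKM in primordia and 3.82 RPKM in mycelium, beside 30.8 RPKM in caps. Over all genes tested the medians were 11.2, 9.50, 10.6 and 11.7 RPKM, in the same order. The cap had the highest mean of the 5 groups for 180 of the 209, mycelium for 13, the primordium for 15 and the stipe for 1. Over all genes tested the cap had the highest mean for 18.3%, mycelium for 24.7%, the primordium for 25.2%, the stipe for 16.3% and the young fruiting body for 15.5%. The fallen genes had a median of 82.4 RPKM in the stipe, 55.7 RPKM in primordia and 32.2 RPKM in mycelium, beside 29.0 RPKM in caps. Each of these medians was above that of all genes tested. The highest mean of the fallen genes was in the young fruiting body for 116, in the stipe for 75, in the primordium for 60 and in mycelium for 25. The cap had the lowest mean for 101 of the 276 (36.6%) and mycelium for 112 (40.6%), beside 13.1% and 28.6% of all genes tested. These counts use the libraries that chose the genes and are a description only.

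**Figure D5:**
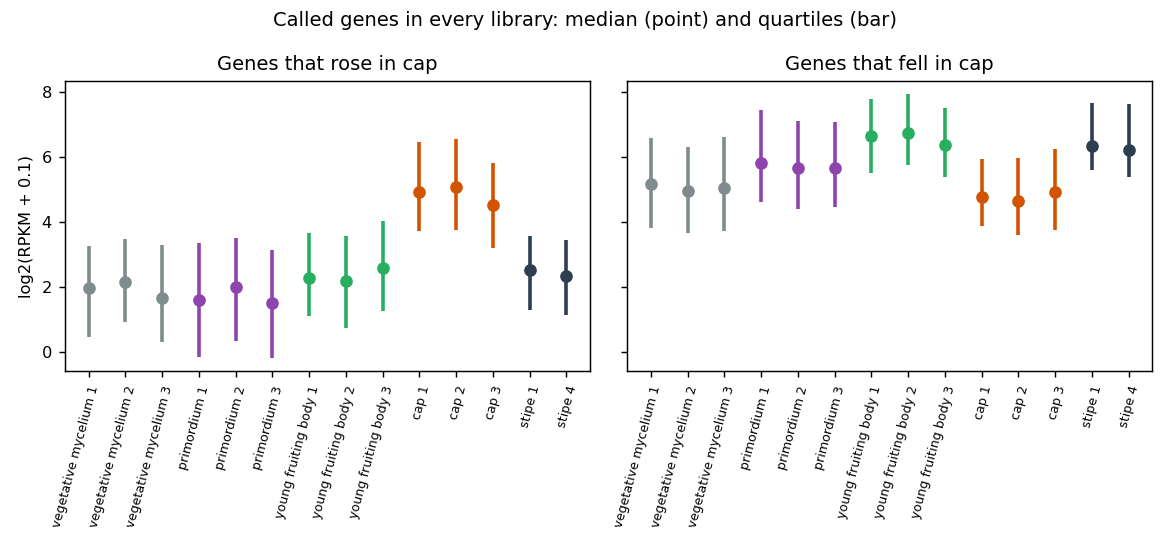
Median (point) and quartiles (bar) of log2(RPKM + 0.1) over the 209 risen genes (left) and the 276 fallen genes (right) in each of the 14 libraries. The median of the risen genes is higher in each of the 3 caps than in each other library, and that of the fallen genes is higher in stipes and young fruiting bodies than in caps.

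The contrast of stipe with primordium compares libraries of neither cap nor young fruiting body, but its calls share the estimate of spread of all 14 libraries, which also entered the choice of the genes. In it, 61 of the 209 risen genes (29.2%) were higher in stipe and 28 (13.4%) lower, where 13.5% and 9.76% of all genes tested were called. Of the 276 fallen genes, 89 (32.2%) were higher in stipe and 20 (7.25%) lower. The share higher in stipe was above that of all genes tested in both lists, with median log2 changes of 0.59 for risen, 0.62 for fallen and 0.17 for all genes. With library size alone, 38.9% of the risen and 58.8% of the fallen genes were higher in stipe, beside 27.8% of all genes. In a fit of the stipe and primordium libraries alone, chosen after seeing the data, 11 of 203 risen genes (5.42%) were higher in stipe and 14 (6.90%) lower, beside 2.45% and 3.69% of all genes tested. In that fit 47 of 276 fallen genes (17.0%) were higher in stipe and 7 (2.54%) lower.

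From vegetative mycelium to primordium, a step that also changes growth condition and flow cell, 43 of the risen genes (20.6%) were higher in primordium, close to the 20.1% of all genes tested, and 60 (28.7%) were lower, beside 23.6% of all genes. Of the fallen genes, 124 (44.9%) were higher in primordium and 50 (18.1%) lower. The median log2 change at this step was 0.82 for fallen genes, -0.11 for risen genes and -0.15 for all genes tested. With library size alone 34.5% of the fallen genes were higher in primordium, beside 10.6% of all genes. In a fit of the primordium and mycelium libraries alone, also chosen after seeing the data, 34 of 198 risen genes (17.2%) were higher in primordium and 40 (20.2%) lower, beside 19.2% and 18.9% of all genes tested. Of 274 fallen genes, 119 (43.4%) were higher in that fit and 45 (16.4%) lower.

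Risen genes were also longer. Their median length was 1678 bases, against 1264.5 bases for fallen genes and 1196 bases for all genes tested. In 3 equal classes by length, the longest held 124 risen genes (2.39% of its genes) and 86 fallen, and the shortest 26 risen (0.501%) and 80 fallen. Over all genes of a class the median log2 change went from -0.08 in the shortest to 0.02 in the longest, a far smaller step than that between classes of level. The risen genes had the longer median length in all 18 settings that called genes, the main one included. These settings reuse the same libraries and are not independent of each other. At a given RPKM a longer model has more reads, and whether this affected the calls was not tested. The gap was smallest without cap replicate 1, at 1631 bases for risen and 1590.5 bases for fallen genes. Reads were almost all unique, with only 2 risen and 5 fallen genes under 90% unique reads.

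The number of genes detected and the share of reads in the most abundant genes were compared over the libraries. After every library was thinned to 13.6 times 1e6 reads, 14624 ± 87 genes had at least 5 reads in caps and 14245 ± 110 in young fruiting bodies (SD, n = 3 each; exact permutation p = 0.1, two-sided, the smallest that 3 against 3 allows). At 1 read or more the means were 15317 ± 108 and 15173 ± 169 (exact permutation p = 0.3, n = 3 each). The 1000 most abundant genes took 51.7% ± 1.39 of the reads in caps and 56.8% ± 2.57 in young fruiting bodies, without overlap (SD, n = 3 each; exact permutation p = 0.1). The 100 most abundant took 21.3% ± 0.75 and 23.0% ± 2.02, with overlap (exact permutation p = 0.3, n = 3 each). The 10 most abundant went the other way, with 9.32% ± 0.84 in caps and 7.38% ± 1.26 in young fruiting bodies (exact permutation p = 0.1, n = 3 each).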

How the data were processed

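Each library came as 1 table of 17139 gene models that holds, per the file headers, total and unique read counts, gene length and RPKM. The deposited counts are whole numbers without normalization, and the deposited RPKM divide reads by length and library total. Tools listed by the submitters' processing notes were limma 3.18.13 and edgeR 3.4.2 under R 3.0.2. The tools listed include no mapper, and no genome build is stated beyond the gene set name Ricmel1. The labels name a kit that does not mark strand, so overlapping and antisense models cannot be told apart.

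In R 4.3.3, total counts were tested by quasi-likelihood in edgeR 4.0.16, with TMM scaling and filterByExpr, in 1 fit of all 14 libraries (9 residual degrees of freedom). Adjusted p-values are Benjamini-Hochberg values over 15559 models. CPM and RPKM in the text were computed here after TMM scaling, with gene lengths from the files. SE is the log2 change divided by the square root of F. Alternatives used DESeq2 1.42.0 and limma 3.58.1.

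Named genes were the 2 risen and 2 fallen genes with the largest log2 change among called genes with no overlap, at least 10 CPM in the higher group and at least 90% unique reads. Members and lists were chosen with earlier results of these data known. The labels do not state that replicate numbers pair samples, so in the main fit they were not treated as pairs. Deviations of same-numbered libraries gave r = -0.007, 0.003 and -0.069, and those of differently numbered libraries -0.084 to 0.078. With 3 libraries per group these values cannot exclude pairing. A fit with the replicate number as a block is given below.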

Additional observations from a re-analysis of the deposited data

Results flagged for a closer look

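Signal was seen in gene models left out of the tests for low counts. In young fruiting body replicate 1, 2 such models reached at least 10 CPM, with all remaining libraries under 1 CPM. They had 1279 and 654 reads there (28.7 and 14.7 CPM by library total), and at most 1 and 2 reads in any other library.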

How the results depend on the processing

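No gene called both in the main test and in another setting changed direction, but which genes were called and how many moved. Called, risen and fallen genes numbered 1133, 621 and 512 by DESeq2, 993, 554 and 439 by limma-voom, and 862, 689 and 173 by limma-trend on log2(RPKM + 1). With the 11 field-collected libraries they were 300, 160 and 140, with only the 6 libraries compared 602, 344 and 258, and with DESeq2 size factors 462, 236 and 226. With library size alone 119 genes fell, and at 4-fold 235 were called and 88 fell, fewer by construction. With 1 library left out the ranges were 149 to 424 called, 84 to 208 risen and 52 to 235 fallen. With the replicate number as a block among the 6 libraries, edgeR called 0 genes (0 risen, 0 fallen, 2398 at an unadjusted p under 0.05, smallest adjusted p 0.0587). That fit has fewer residual degrees of freedom than the main fit, which has 9, and than the fit of the 6 libraries without a block. Which direction held more genes thus depended on the setting: fallen genes outnumbered risen ones in 7 of 18 settings with calls. Risen genes were at 4-fold or more in a larger share than fallen genes in 17 of the 18, the exception being the 4-fold threshold itself. The 4 named genes kept direction in 64 alternative values and lost the call in 15, which fell on models 902902 and 788485 except for the block. On log2(RPKM + 1) the mean correlations were 0.934 within and 0.904 between groups. The difference in the share of the most abundant genes was -1.72 percentage points for 100 genes and 1.94 for 10. With library size alone, 11.3% of risen genes were higher and 44.2% lower in primordium than mycelium, beside 10.6% and 40.4% of all genes tested, and of fallen genes 58.8% were higher and 3.36% lower in stipe than primordium and 27.7% lower in primordium than mycelium, where all genes gave 27.8%, 3.96% and 40.4%. In a fit of the stipe and primordium libraries alone, chosen after seeing the data, 5.42% of risen genes were higher in stipe and 6.90% lower, and 17.0% of fallen genes were higher and 2.54% lower. The cause of these moves was not tested. In the 6 libraries compared, 3 reads, the upper limit that a count of 0 allows by counting error alone, were worth 0.044 to 0.102 CPM, so the 0 reads of model 902902 in young fruiting body replicate 3 allow up to 0.069 CPM.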

Other observations

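The most abundant transcripts were largely common to both groups. Of the 100 gene models with the highest mean RPKM in caps, 68 were also among the 100 highest in young fruiting bodies. Of the 100 highest in young fruiting bodies, 16 fell and 0 rose in the cap, and of the 100 highest in caps 4 rose and 5 fell. In the class of highest mean level, the upper of 4 equal classes, 5.30% of genes fell and 0.925% rose. The models were picked on levels that the comparison itself uses, so these counts are a description only.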
